A study of Mus musculus with 4 samples.

Results

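Prohormone processing and secretory granule genes were followed in mouse pancreatic islet cells given a scrambled peptide or MOTS-c, a short peptide encoded within the mitochondrial 12S rRNA gene. They are 10 genes chosen by name for their place in the regulated secretory pathway (Pcsk1, Pcsk2, Scg5, Cpe, Pam, Chga, Chgb, Scg2, Scg3 and Slc30a8), of 15475 genes tested, and they were read by 11 of the 35087 probes tested. RNA was read on 4 Agilent arrays of a single color. The islet cells came from 4 littermates, 60-week-old male C57BL/6 mice according to the labels, and were handpicked as islets, dispersed to single cells and kept in culture with either peptide at 10 μM for 24 h. The scrambled group (replicates 1 and 2) and the MOTS-c group (replicates 2 and 3) held 2 arrays each. Both groups received a peptide, so each difference is against the scrambled peptide and not against untreated cells. The labels do not say which animal gave which array, and p-values measure the spread between these samples.

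Endocrine cells make their hormones as larger precursors. In the trans-Golgi network and the maturing granule, prohormone convertases cut the precursor after paired basic residues, carboxypeptidase E trims the exposed basic residues, and some peptides are then amidated at the carboxyl end. Granins condense with the cargo into the dense core, and in beta cells a zinc transporter of the granule membrane supplies the ions with which insulin is stored.

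Values are the log2 of the scanner's background-corrected spot signal after quantile normalization, a step that gives the arrays a common distribution, so that the brightest probes take values fixed by their rank. A difference is the mean of the MOTS-c arrays minus the mean of the scrambled arrays on that log2 scale, with limma's standard error (SE), 95% interval and Benjamini-Hochberg adjusted p over all 35087 probes. Levels of different genes come from different probes and are not set against each other. The 4 arrays limit the precision, and a permutation of 2 arrays against 2 cannot give an exact two-sided p below 0.333.

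MOTS-c replicate 3 stood apart from the other arrays. It lay at 51.0 on the first principal component of all tested probes, which held 52.1% of the variance, whereas the other 3 arrays lay between -34.4 and -5.03. The 2 scrambled arrays differed from each other by 0.164 in the median absolute log2 value, and the 2 MOTS-c arrays by 0.189. The labels call the mice male, but none of the 7 probes for Y-linked genes was well above background on any array (0 of 28 pairs of probe and array), whereas Xist was detected above background by 4 of the 4 arrays. Of the markers of beta cells, 8 of 10 were well above background on all 4 arrays, as were 4 of 6 for alpha cells and 4 of 4 for delta cells. Ucn3, a marker of mature beta cells, was not well above background on enough arrays to be tested. In these bulk samples, fewer cells of a type and less RNA per cell cannot be told apart.

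Promoter sequence was available for 8 of the 10 genes, all but Cpe and Slc30a8. The stretches below are the 150 bases before the start site of the 4 genes that hold a cAMP response element or its first letters there, shown because this sequence is what those promoters share, and are read 5′ to 3′ on the strand of the gene from RefSeq promoter sequence of build GRCm38.p6. Capitals mark TGACGTCA, the palindromic element, in Scg2 (chr1:79440027-79440176, minus strand), Chgb (chr2:132781492-132781641, plus strand) and Pcsk1 (chr13:75089707-75089856, plus strand), and TGACGT in Chga (chr12:102554791-102554940, plus strand). A further TGACGT in Pcsk1 is left in lower case.
Scg2: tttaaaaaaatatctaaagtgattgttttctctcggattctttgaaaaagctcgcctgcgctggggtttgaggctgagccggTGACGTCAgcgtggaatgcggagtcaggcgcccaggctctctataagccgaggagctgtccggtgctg
Chgb: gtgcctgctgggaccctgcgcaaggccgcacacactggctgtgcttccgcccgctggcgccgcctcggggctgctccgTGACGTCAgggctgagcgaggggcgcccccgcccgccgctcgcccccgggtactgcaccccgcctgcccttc
Pcsk1: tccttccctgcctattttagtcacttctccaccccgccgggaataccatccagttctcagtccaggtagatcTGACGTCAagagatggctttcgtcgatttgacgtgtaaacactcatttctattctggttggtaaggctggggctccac
Chga: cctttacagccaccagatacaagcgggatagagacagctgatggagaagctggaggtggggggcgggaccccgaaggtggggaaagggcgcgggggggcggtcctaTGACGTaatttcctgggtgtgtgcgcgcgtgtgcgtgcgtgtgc

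The cAMP response element is bound by the transcription factor CREB and its relatives. TGACGTCA began 68 bases before the start site in Scg2, 72 in Chgb and 78 in Pcsk1. Searched on both strands, it was present in 3 of the 8 member promoters. Of all 32851 promoter windows of the same length (250 bases before to 50 after a start) 1.79% held it. The shorter TGACGT, which lies within TGACGTCA, was present in 5 of the 8, the same 3 with Chga and Scg5. Of all windows 7.51% held it. In Chga TGACGT began 44 bases before the start. Scg5 held it 175 bases before the start and, on the opposite strand, 39 bases after the start. A match describes these letters only. A member counts if any of its windows matches, whereas the shares are of single windows. The motif was chosen with these promoter sequences known, so the counts do not measure enrichment. Of the genes that carry the whole element, Pcsk1 and Scg2 were lower on both MOTS-c arrays and the Chgb arrays overlapped. The sign of the Chgb difference changed with the scaling of the arrays. Whether the element bears on these values was not tested.

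No member differed between the groups past the threshold. Among the 10 genes 0 passed limma's adjusted p of 0.05, as did 0% of the 15475 genes tested, each by its brightest probe. At an unadjusted p under 0.05 there were 0 members and 8.61% of all genes, and 0 members against 4% of all genes when at least a 1.5-fold change was also asked for. The smallest unadjusted p of the 11 member probes was 0.193 by limma, for Pcsk1, with an adjusted p of 0.770. The methods' t-test also had 0 of the member probes at an unadjusted p under 0.05, and limma with a trend of the variance on the signal had 1, for Scg5.

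The differences of the 10 genes were small in both directions and ran from -0.20 for Pcsk1 to 0.05 for Pcsk2, with 7 below 0 and 3 above. Their median was -0.07, beside 0.01 over all probes, -0.0018 over all genes by brightest probe and 0.0014 in the brightest 25% of probes. Under the 75th percentile shift, which moves each array by a single amount in place of the quantile step, all 10 differences lay below 0, between -0.26 and -0.02, and the median was -0.11. Without MOTS-c replicate 3 the median was 0.00. For 9 of the 10 genes the 95% interval lay inside a change of 1.5-fold either way, as it did for 56.4% of all genes and for 79.8% of the brightest 25% of probes, where all 10 genes lay. The exception was Slc30a8. In 3 genes, Pcsk1, Scg5 and Scg2, each MOTS-c array was below each scrambled array (22.7% of all genes), in 1, Pcsk2, each was above (19.8% of all genes), and in 6 the groups overlapped.

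**Figure D1:**
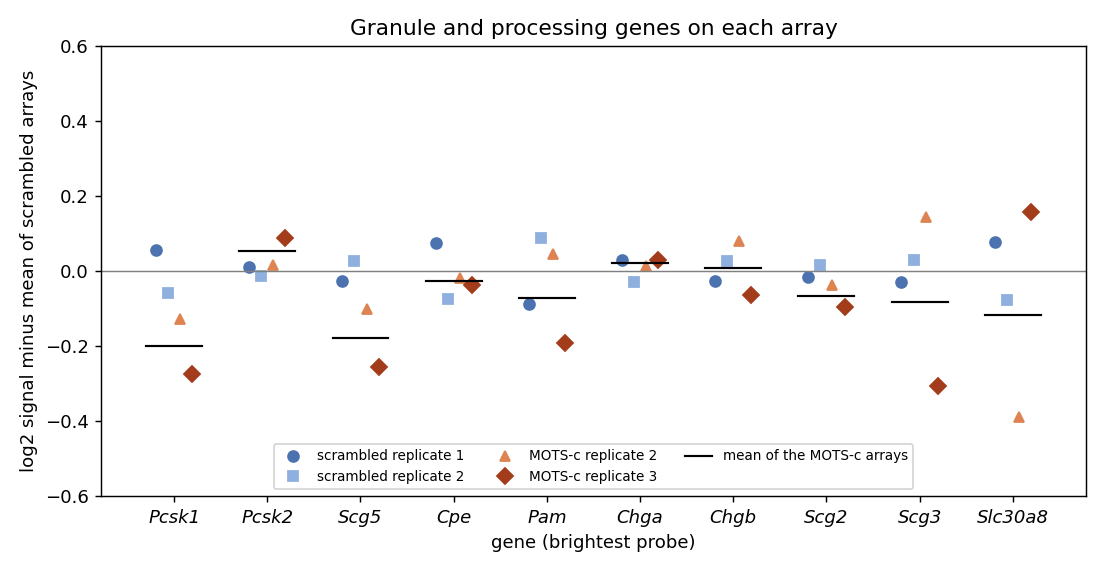
For each of the 10 genes along the horizontal axis, the log2 signal of each of the 4 arrays minus the mean of the scrambled arrays (vertical axis, log2 units), with a bar at the mean of the MOTS-c arrays. Points of both MOTS-c arrays lie below the scrambled points for Pcsk1, Scg5 and Scg2, and the MOTS-c points of Scg3 and Slc30a8 lie farthest apart.

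Pcsk1 encodes prohormone convertase 1/3, which makes the first cuts in proinsulin. Its probe (A_52_P500979) read 14.65 and 14.53 with scrambled peptide, then 14.46 and 14.32 with MOTS-c. Both MOTS-c arrays were the lower ones, with MOTS-c replicate 3 lowest of the 4. The difference was -0.20 (SE 0.13, 95% interval -0.55 to 0.15, limma adjusted p = 0.770), larger than the gap between the arrays within either group, and it was -0.13 without MOTS-c replicate 3 and -0.093 with the normexp background correction, under which Scg5 and not Pcsk1 was the lowest member.

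Pcsk2 encodes prohormone convertase 2, which completes the processing of proinsulin and makes glucagon from proglucagon. Its probe (A_51_P229613) read 16.48 and 16.45 with scrambled peptide, then 16.48 and 16.55 with MOTS-c. MOTS-c replicate 2 was above scrambled replicate 1 by less than the gap between the scrambled arrays, and MOTS-c replicate 3 was the highest of the 4. The difference was 0.05 (SE 0.12, 95% interval -0.26 to 0.37, limma adjusted p = 0.945), and 0.02 without MOTS-c replicate 3. With the 75th percentile shift it was -0.02.

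Scg5 encodes 7B2, the chaperone that helps the convertase 2 precursor fold and keeps the enzyme inhibited until it reaches the granule. Its probe (A_55_P1981929) read 15.66 and 15.71 with scrambled peptide, then 15.58 and 15.43 with MOTS-c. As with Pcsk1, both MOTS-c arrays were lower and MOTS-c replicate 3 was lowest. The difference was -0.18 (SE 0.13, 95% interval -0.52 to 0.16, limma adjusted p = 0.789), or -0.10 without MOTS-c replicate 3. Under limma with a trend the unadjusted p for Scg5 was 0.0423 and the adjusted p 0.574.

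Cpe encodes carboxypeptidase E, the enzyme that removes the basic residues left by the convertases. Its probe (A_55_P2025038) read 17.55 and 17.40 with scrambled peptide, then 17.45 and 17.43 with MOTS-c. Both MOTS-c values lay between the scrambled values. The difference of -0.03 (SE 0.13, 95% interval -0.36 to 0.31, limma adjusted p = 0.978) was smaller than the scrambled gap, and it was 0.05 without scrambled replicate 1.

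Pam encodes peptidylglycine alpha-amidating monooxygenase, which forms the amidated end of peptides such as amylin. It was the only member with 2 tested probes. The brighter one (A_55_P1969156) read 12.60 and 12.78 with scrambled peptide, then 12.73 and 12.50 with MOTS-c, so the groups overlapped, with a difference of -0.07 (SE 0.15, 95% interval -0.47 to 0.33, limma adjusted p = 0.938). The dimmer one (A_55_P2733797) read 9.21 and 9.42 against 9.47 and 9.40, again with overlap, and a difference of 0.12 (SE 0.14, 95% interval -0.24 to 0.48, limma adjusted p = 0.865). The probes of Pam thus gave opposite signs, neither larger than its spread, and the mean over both probes was 0.02. Without MOTS-c replicate 3 the brighter probe gave 0.05.

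The granins make up much of the soluble content of the granule. Chga, chromogranin A, is a precursor of bioactive peptides that also condenses in the granule core. Its probe (A_51_P358316) read 17.74 and 17.68 with scrambled peptide, then 17.72 and 17.74 with MOTS-c, a range narrower than that of any other member. The groups overlapped, and the difference was 0.02 (SE 0.12, 95% interval -0.29 to 0.33, limma adjusted p = 0.982). It was -0.02 with the 75th percentile shift.

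Chgb, chromogranin B, was printed as 10 spots of a single probe (A_51_P191669) on each array, which gives a direct view of the spread within an array. As deposited, before normalization, the spots that were not outliers (9 and 10 with scrambled peptide, then 6 and 10 with MOTS-c) had means of 17.43, 17.61, 17.64 and 17.43 and SDs of 0.028, 0.028, 0.036 and 0.042. The array means spanned 0.212, against up to 0.146 for the spots of an array. They fell into a lower pair, scrambled replicate 1 with MOTS-c replicate 3, and a higher pair, scrambled replicate 2 with MOTS-c replicate 2, so that each group held 1 array of each pair. After normalization the values were 17.49 and 17.55 with scrambled peptide, then 17.60 and 17.45 with MOTS-c. The groups overlapped, and the difference was 0.01 (SE 0.13, 95% interval -0.33 to 0.34, limma adjusted p = 0.995). It was 0.08 without MOTS-c replicate 3 and -0.06 with the 75th percentile shift.

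**Figure D2:**
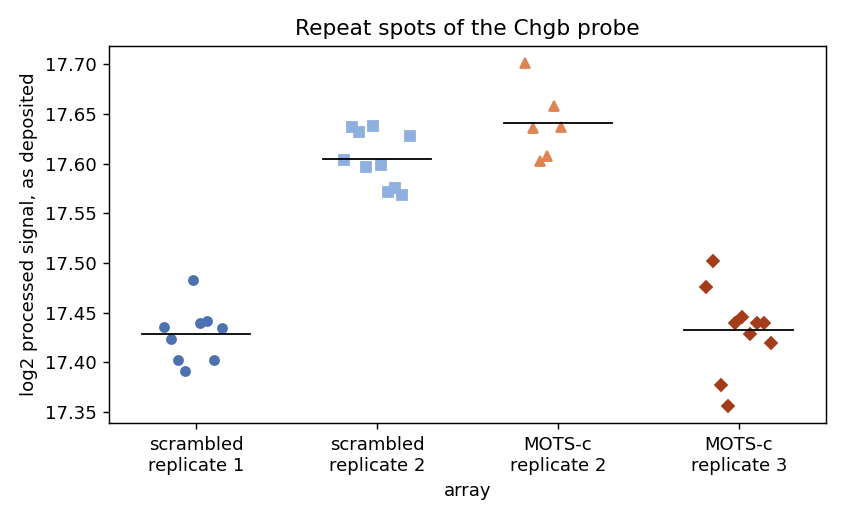
Log2 processed signal as deposited (vertical axis) of the repeat spots of the Chgb probe on each of the 4 arrays (horizontal axis), with a bar at each array's mean. The spots of an array span 0.0699 to 0.146 log2 units, and the arrays form a lower pair at 17.43 and 17.43 and a higher pair at 17.61 and 17.64 that cut across the groups.

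Scg2, secretogranin II, the precursor of secretoneurin, had a probe (A_55_P1992490) at 17.32 and 17.35 with scrambled peptide, then 17.30 and 17.24 with MOTS-c. Both MOTS-c arrays were lower, by a difference of -0.07 (SE 0.12, 95% interval -0.38 to 0.25, limma adjusted p = 0.927). Without MOTS-c replicate 3 it was -0.04, with the 75th percentile shift -0.14 and with normexp -0.019.

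Scg3, secretogranin III, tethers chromogranin A to the granule membrane. Its probe (A_51_P161248) read 14.24 and 14.30 with scrambled peptide, then 14.41 and 13.96 with MOTS-c. MOTS-c replicate 2 was the highest of the 4 arrays and MOTS-c replicate 3 the lowest, 0.450 apart against 0.0583 between the scrambled arrays. The difference was -0.08 (SE 0.19, 95% interval -0.58 to 0.42, limma adjusted p = 0.946), and it was 0.14 without MOTS-c replicate 3, so its sign rested on that array.

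Slc30a8 encodes ZnT8, which moves zinc into the insulin granule. Its probe (A_66_P104833) read 14.83 and 14.67 with scrambled peptide, then 14.36 and 14.91 with MOTS-c. Here too the MOTS-c arrays were the lowest and the highest, but in the opposite order to Scg3, and their gap of 0.547 was the widest of any member. The difference was -0.12 (SE 0.22, 95% interval -0.70 to 0.46, limma adjusted p = 0.933), and that interval reached from 0.617-fold to 1.38-fold of the scrambled level, so that it included a fall of 1.5-fold. The difference was -0.39 without MOTS-c replicate 3 and 0.16 without MOTS-c replicate 2.

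**Figure D3:**
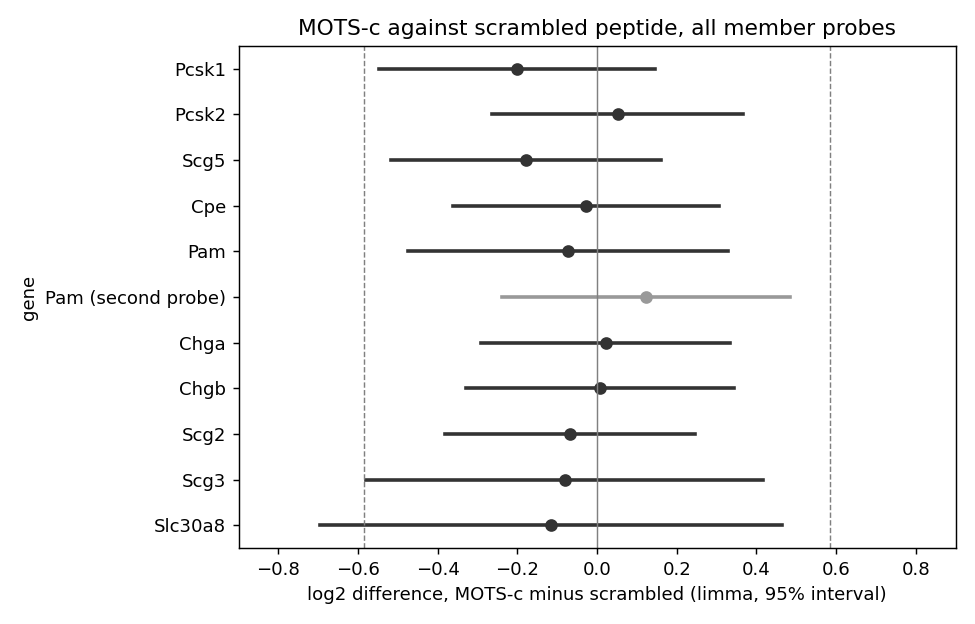
Log2 difference of MOTS-c minus scrambled (horizontal axis, dot) with limma's 95% interval (line) for each of the 11 member probes (vertical axis), and dashed lines at a change of 1.5-fold. Every interval spans 0, and of the brightest probes only Slc30a8 crosses a dashed line.

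The spread among the MOTS-c arrays was the wider one for most members. For 8 of the 10 genes the gap within the MOTS-c group exceeded the gap within the scrambled group, with medians of 0.145 and 0.0589. Over all tested probes the median gaps were 0.189 and 0.164, so the MOTS-c gap was the wider one there too. MOTS-c replicate 3 was the lowest of the 4 arrays for 6 genes and the highest for 2. The difference between the group means exceeded both within-group gaps for 3 genes, Pcsk1, Scg5 and Scg2. The shares of all genes were not computed for these counts, so they are not read as traits of the members. On each of the 4 arrays the scanner software flagged all 11 member probes as well above background, at a signal over the local background of 126 to 7026 for the brightest probe of each gene, and no spot was saturated. The median absolute difference of the 10 genes was 0.0701, beside 0.0886 in the brightest 25% of probes and 0.143 over all probes.

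No hormone precursor on which these enzymes act differed past the threshold, and the precursors' differences ran from -0.28 for Sst to 0.32 for Ppy. The Ppy probe was dim and not well above background on all 4 arrays. Among precursors that were, the highest difference was 0.11, for Gcg. Insulin was read by Ins1 at 18.13 and 18.13 with scrambled peptide, then 18.10 and 18.09 with MOTS-c, a difference of -0.04 (limma adjusted p = 0.960), with both MOTS-c arrays lower. Ins2 read 18.54 and 18.64 against 18.54 and 18.54, which overlapped, with a difference of -0.05 (limma adjusted p = 0.948). At this brightness the quantile step assigned the same value to arrays of equal rank.

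Iapp, the precursor of amylin and a substrate of Pcsk1, Pcsk2, Cpe and Pam, read 17.01 and 17.05 against 17.09 and 17.11, higher on both MOTS-c arrays by 0.07 (limma adjusted p = 0.921). Gcg, the precursor of glucagon, read 15.56 and 15.61 against 15.66 and 15.72, also higher on both, by 0.11 (limma adjusted p = 0.863). Under the 75th percentile shift neither was higher without overlap. Sst, the precursor of somatostatin, read 17.17 and 17.72 against 17.17 and 17.16, a difference of -0.28 (limma adjusted p = 0.804) in which scrambled replicate 2 alone stood above the rest. Of 13 hormone and peptide precursors listed, 10 were tested. Among these, 2 were higher and 2 lower without overlap (19.8% and 22.7% of all genes). By limma 0 had an unadjusted p under 0.05, beside 8.61% of all genes. Adcyap1, Pyy and Vip were not well above background on enough arrays.

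The remaining genes of the pathway were taken from lists of the same families and steps. Of 85 such genes 81 were tested, and 14 were higher and 18 lower on both MOTS-c arrays, with a median of -0.00. Of all genes, 19.8% were higher and 22.7% lower on both MOTS-c arrays. Counts without overlap in each list stand beside these shares, and no list was tested as a set. By limma 4 of the 81 genes had an unadjusted p under 0.05, beside 8.61% of all genes. With a change of 1.5-fold as well there were 0, beside 4%, and 0 had an adjusted p under 0.05, beside 0%.

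Among the proprotein convertases, 8 of 9 were tested, and 4 were lower and 2 higher without overlap, with a median difference of -0.13. Furin, which cuts precursors in the constitutive pathway of most cells, read 13.00 and 13.15 against 12.94 and 12.71, a difference of -0.25 (limma adjusted p = 0.746). Pcsk4, known from germ cells, also differed by -0.25 (limma adjusted p = 0.717). With Pcsk1 these were the largest differences of that list, and none of its genes had an unadjusted p under 0.05 by limma.

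Of the carboxypeptidase relatives of Cpe, counted with it, 6 of 7 were tested. Cpm, a membrane-bound carboxypeptidase, read 10.33 and 10.34 against 10.75 and 10.79, a difference of 0.44 with an unadjusted limma p of 0.0159 and an adjusted p of 0.539. Cpd, the trans-Golgi carboxypeptidase, was higher by 0.17 (limma adjusted p = 0.793) and Cpn1, of the plasma enzyme carboxypeptidase N, lower by a difference of -0.38 (limma adjusted p = 0.732). The list thus held genes on either side of Cpe.

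For the amidation genes and other modifiers of peptide ends, 4 of 5 were tested, and only Cyb561, which passes electrons into the granule for Pam, lay without overlap, at -0.08 (limma adjusted p = 0.906). The granins and related cargo numbered 9, all tested, with a median of -0.00. In that list Scg5 and Scg2 alone lay without overlap, and 1 gene had a value on only 3 arrays.

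Among 11 granule membrane genes, 2 were lower and 0 higher without overlap. Ica1, which acts in granule biogenesis and is an islet autoantigen, read 13.98 and 13.91 against 13.60 and 13.36, a difference of -0.46 with an unadjusted limma p of 0.0249 and an adjusted p of 0.563. Rab3a, a small GTPase of granule exocytosis, differed by -0.21 (limma adjusted p = 0.799).

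In the zinc transporter family Slc30a, 9 of 10 genes were tested, with a median of 0.12. On both MOTS-c arrays 5 were higher and 0 lower, beside 19.8% and 22.7% of all genes. Slc30a8 had the lowest difference of the 9 as reported and under the 75th percentile shift, and Slc30a5 had it under the normexp correction. With those scalings the count stayed at 5 higher and 0 lower, but the shares of all genes under them were not computed. Without scrambled replicate 1 or without MOTS-c replicate 2 the lowest was Slc30a10, and in the latter case Slc30a8 was at 0.16. For this list, genes without overlap are not counted with an array left out, because a lone array lies apart more easily. Slc30a1, which exports zinc at the plasma membrane, read 10.35 and 10.20 against 10.67 and 10.72, a difference of 0.42 with an unadjusted limma p of 0.0249 and an adjusted p of 0.563. Slc30a4 differed by 0.41 (limma adjusted p = 0.722), its arrays at 13.30 and 12.96 against 13.33 and 13.74, and Slc30a7 by 0.25 (limma adjusted p = 0.715). Whether Slc30a8 differs from the others of its family was not tested.

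The machinery of the granule and of precursor folding lay on both sides of 0. Among 17 genes of granule biogenesis and sorting, 2 were higher and 3 lower without overlap, with a median of 0.00, and besides Ica1 the largest of these were Syt4, a granule synaptotagmin, at 0.35 (limma adjusted p = 0.646) and Golga2, a Golgi matrix protein, at -0.15 (limma adjusted p = 0.829). The 15 subunits of the proton pump, which acidifies the granule as the convertases require, had 1 higher and 5 lower with a median of -0.02 (1 and 3 under the 75th percentile shift, 3 and 4 under normexp, 2 and 1 with no normalization between arrays), and Atp6v1b2 was lowest at -0.22 (limma adjusted p = 0.767). Of 14 genes for proinsulin folding in the endoplasmic reticulum, 3 were higher and 3 lower. Ero1a, an oxidase that drives disulfide formation, read 12.42 and 12.15 against 12.65 and 12.76, a difference of 0.42 with an unadjusted limma p of 0.0432 and an adjusted p of 0.615, while its relative Ero1b, abundant in beta cells, was at -0.16 (limma adjusted p = 0.829) and the chaperone Hsp90b1 at 0.24 (limma adjusted p = 0.764).

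**Figure D4:**
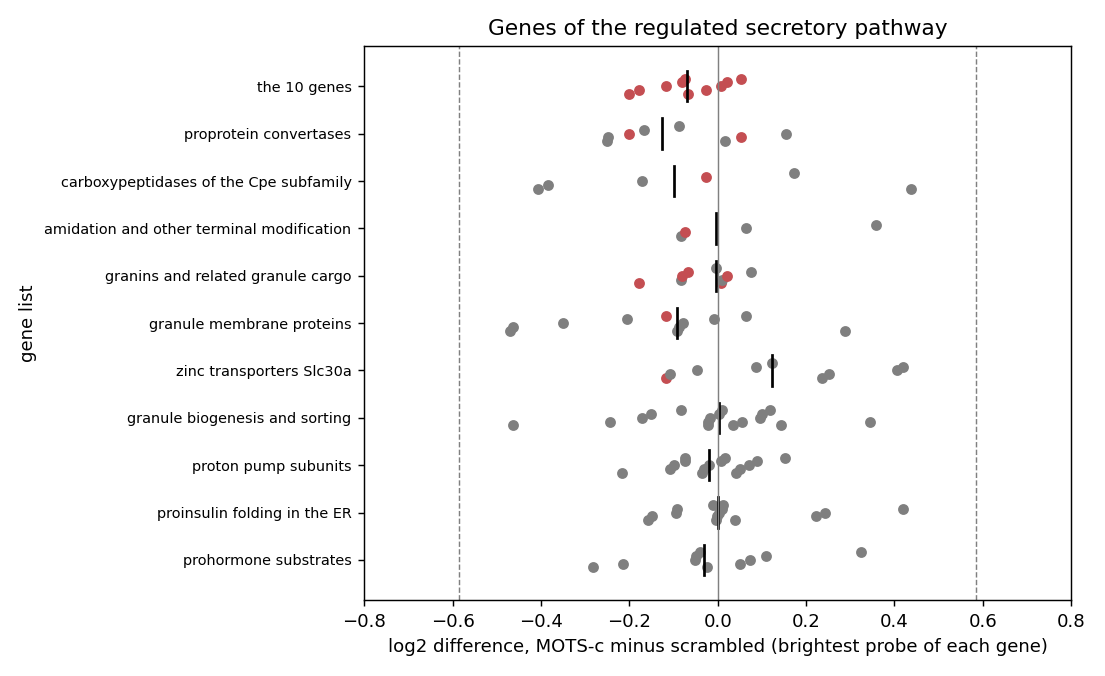
Log2 difference of MOTS-c minus scrambled (horizontal axis) of each tested gene by its brightest probe, in rows by gene list, with the 10 genes in red, the other genes in grey, list medians as black bars and dashed lines at a change of 1.5-fold. No gene passes a dashed line, the 10 genes lie between -0.20 and 0.05, and the zinc transporters have a median of 0.12.

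Markers of cell types moved with the groups in some lists, and their part in the values above was not tested. The sums below add unlogged signals, so the brightest probes of a list largely set its sum, which does not measure cell content. The summed signal of the beta cell markers, in log2, was 19.74 to 19.78 on the scrambled arrays and 19.72 to 19.73 on the MOTS-c arrays, that of the alpha cell markers 15.82 to 15.90 and 15.90 to 15.93, and that of the delta cell markers 17.22 to 17.77 and 17.21 to 17.23. Of the 9 beta cell markers tested, 3 were higher and 5 lower without overlap (19.8% and 22.7% of all genes), or 1 and 4 under the 75th percentile shift. The beta cell list held Slc2a2, the glucose transporter, at a difference of -1.33 (limma adjusted p = 0.474, not well above background on all arrays), and Glp1r at -0.64 (limma adjusted p = 0.509), while Nkx6-1, a beta cell transcription factor, was at 0.12 (limma adjusted p = 0.869). The alpha cell list held Irx2 at 0.68 (limma adjusted p = 0.519).

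Acinar markers, of digestive enzyme cells, summed to 11.84 to 11.97 on the scrambled arrays and 11.03 to 11.34 on the MOTS-c arrays. That sum was largely Cela1, at a mean of 11.46 over the arrays, with the next brightest, Cel, at 6.13. Likewise Itgam at 12.75 largely set the immune sum below and Plvap at 10.78 the endothelial one. For these, 4 of 9 genes were tested, of which 1 was higher and 1 lower without overlap (0 and 2 under the 75th percentile shift). Cela1 differed by -0.76 (limma adjusted p = 0.499) and Ctrb1 by 0.33 (limma adjusted p = 0.726), and Prss2, Cpa1, Cpb1, Pnlip and Amy2b were not well above background on enough arrays. The ductal sums were 7.49 to 8.13 against 7.35 to 7.81 (3 of 6 genes tested), the endothelial 10.64 to 11.02 against 10.71 to 10.97 (3 of 6), the immune 12.88 to 12.91 against 12.64 to 13.19 (3 of 7) and the mesenchymal 7.66 to 7.88 against 7.14 to 7.36 (2 of 7). Krt19, Sox9, Kdr, Cdh5, Ptprc and Col1a1 were not well above background on enough arrays, and in the mesenchymal list Pdgfra differed by -1.05 (limma adjusted p = 0.567). The Ppy probe of pancreatic polypeptide cells, the only one tested of 2, read 3.80 and 4.55 against 4.43 and 4.57 and was not well above background on all arrays.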

How the data were processed

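RNA of the 4 samples was amplified, labeled with Cy3 and hybridized to Agilent mouse gene expression arrays, 1 per sample, which lay on the same slide and were scanned together. The authors extracted the spots with Feature Extraction (version 11.0.1.1), and the deposited intensity values had their background corrected array by array, without any scaling between arrays. The authors also deposited a table of the same intensity values, rounded, whose ratio to the scanner values lay between 0.995 and 1.005.

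Control spots (3671 per array) and outlier spots (96 to 131 gene spots per array) were left out, the log2 was taken and repeat spots were averaged per probe. A probe entered if 2 or more of the 4 arrays read it well above background, and quantile normalization followed. limma (version 3.58.1, in R 4.3.3) compared the groups with Benjamini-Hochberg adjustment over 35087 probes, on 2 residual degrees of freedom with 2.64 added by limma. The scripts were tested on simulated data. A gene was called at an adjusted p under 0.05, or, more loosely, at 1.5-fold and an unadjusted p under 0.05, and the intervals are at 95%. The samples were grouped by the treatment and replicate number in the labels.

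Each gene was followed through its brightest probe, the one with the highest mean signal over the 4 arrays. All 10 members are given at every probe, and Ins1, Ins2, Iapp, Gcg and Sst whatever their values. Of the other lists, genes at 1.5-fold and an unadjusted p under 0.05 are named, and otherwise at most 3 of a list with the largest difference without overlap of the groups. Some genes under this rule are left out of the text. The members and lists were chosen with earlier results of these data known, and the promoter motif was chosen with the promoter sequences known. The probe design and the gene table use different builds, so no gene coordinates are given. Promoter windows came from RefSeq for build GRCm38.p6.

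Alternatives were a 75th percentile shift, normexp (offset 50) as the background correction, the rounded values, no filter or a filter on all 4 arrays, leaving out each array, limma with a trend, the methods' t-test and the mean over the probes of a gene. Omitting any normalization between arrays was added after seeing the data.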

Additional observations from a re-analysis of the deposited data

How the results depend on the processing

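No setting gave a call, as 0 of the 10 genes passed an adjusted p under 0.05, or 1.5-fold with an unadjusted p under 0.05, as reported or under any alternative run. Over 133 values, of single probes and of the mean over the Pam probes, under 13 alternatives, 121 kept their sign and 12 changed it. Under limma with a trend and the methods' t-test the differences are those reported, so their signs could not change. The rounded values and the filters gave nearly the same differences, so the count is not a measure of robustness. Pcsk1, Scg5, Scg2 and the dimmer Pam probe kept their sign throughout, but not their size: under normexp Pcsk1 was at -0.093, Scg2 at -0.019 and the dimmer Pam probe at 0.055, and under the 75th percentile shift Scg2 was at -0.14. The cause of the changes below was not tested. With the 75th percentile shift, Chgb was at -0.059, Pcsk2 at -0.023 and Chga at -0.020, and 0 genes were higher on both MOTS-c arrays in place of 1, as with the normexp correction. With no normalization between arrays 2 were higher. The mean over the Pam probes was 0.025. Leaving out each array gave 4 to 6 genes lower and 1 to 3 higher without overlap. A lone array lies apart more easily, and the shares of all genes were not computed with an array left out. These counts are therefore not set against those from all arrays. The median with an array left out lay between -0.078 and 0.00091. Scg3 lay between -0.31 and 0.14 (0.14 without MOTS-c replicate 3). Chgb lay between -0.060 and 0.081 (-0.060 without MOTS-c replicate 2, -0.020 without scrambled replicate 1). Chga lay between -0.011 and 0.060 (-0.011 without scrambled replicate 2). The brighter Pam probe lay between -0.19 and 0.049 (0.017 without scrambled replicate 2, 0.049 without MOTS-c replicate 3). Cpe lay between -0.10 and 0.045 (0.045 without scrambled replicate 1) and Slc30a8 between -0.39 and 0.16 (0.16 without MOTS-c replicate 2). Leaving out an array assumes that the lone array of a group varies like the other group. No paired analysis was possible because the groups share only replicate number 2. Member probes were 17.0 to 7026 times the local background and all well above it. With 2 arrays in each group the precision is limited.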
